A study of Homo sapiens with 36 samples.

Results

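The integrated stress response was described here through 10 genes that encode its transcription factors and feedback proteins: ATF3, ATF4, ATF5, DDIT3, CEBPB, CEBPG, TRIB3, PPP1R15A, NUPR1 and SESN2. They were chosen by symbol from the 60675 genes of the count table, with earlier results of these data known. Their counts beside the shares of all genes are therefore a description. All 10 were found once, and their values were followed through all 12 groups of the study. In SW1783 cells 9 of the 10 rose after a high dose of an aconite extract and the same 9 rose after a medium dose, with fold changes at the high dose between 2.74 for CEBPB and 26.5 for ATF3. In HT29 cells 5 of 10 rose by over 1.5-fold with an adjusted p under 0.05, at the high dose only among the 3 doses. These rises ran from 1.51-fold for ATF4 to 2.73-fold for ATF3. CEBPG and PPP1R15A also had an adjusted p under 0.05 there, with rises under 1.5-fold. Wortmannin changed none of the 10 by more than 1.5-fold with an adjusted p under 0.05 in either line.

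In the integrated stress response, several stress-sensing kinases phosphorylate the translation initiation factor eIF2 on its alpha subunit, which lowers general protein synthesis while the mRNA of ATF4 is translated more. ATF4 is a basic leucine zipper (bZIP) factor that pairs with C/EBP proteins and switches on genes for amino acid supply, and it also raises DDIT3 (CHOP), ATF3 and TRIB3. PPP1R15A (GADD34) closes the loop by bringing a phosphatase to eIF2, and TRIB3 restrains ATF4 and CHOP. RNA sequencing reads the mRNA of these genes and gives neither eIF2 phosphorylation nor protein levels.

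The study compared a brain-derived and a colon-derived line. SW1783, an astrocytoma line, and HT29, a colorectal adenocarcinoma line, were treated for 24 h with 3 replicates per group, giving 36 libraries. In batch A each line had a vehicle group and a group with wortmannin at 10 µM, the positive control, which blocks PI3K. In batch B each had a vehicle group under its own label and 3 doses of ACD, named high (500 µg/mL), medium (100 µg/mL) and low (20 µg/mL). ACD is *Aconitum carmichaeli* Debeaux (monkshood) extracted with hot water, and the labels call it a water extract of Aconiti Lateralis Radix Preparata. The vehicle was buffered saline with DMSO, which the sample labels give as 0.1% DMSO. The labels name no genetic change in either line. The methods describe different media for the lines, L-15 without added CO2 for SW1783 and DMEM with CO2 for HT29. They also describe fewer cells plated per well for SW1783 than for HT29. Line, medium and plating density therefore cannot be told apart in any comparison between the lines.

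Total counts per library ranged from 15941255 to 33866644. Of 6 mesenchymal or glial markers, VIM, FN1, COL1A2 and CD44 were higher in every SW1783 library than in any HT29 library (VIM 90561 to 117472 against 0 to 2.87), S100A6 overlapped between the lines (15960 to 23421 and 22742 to 42785), and the astrocyte marker GFAP was near 0 in SW1783 (0 to 5.75). All 6 epithelial markers were higher in every HT29 library, EPCAM at 9863 to 14171. In SW1783 EPCAM, CDH1, KRT20 and VIL1 stayed under 5, whereas KRT18 had 1622 to 5482 and KRT8 258.7 to 520.1. One share moved with the dose: the 2 mitochondrial ribosomal RNAs took 0.932% of counts in SW1783 vehicle and 3.14%, 7.83% and 5.93% at the low, medium and high dose, and in HT29 1.18% in vehicle and 1.09%, 2.1% and 12%. With the 37 mitochondrial genes left out before scaling, the numbers of called members were the same in all 14 comparisons. HT29 high dose replicate 2 had the smallest library of all (15941255 counts), differed from the other 2 of its group by 31.2 and 30.4 times counting noise, while those differed from each other by 2.36 times, and lay apart from its group for several members, so the HT29 high dose change of each member is also given without it. HT29 vehicles of batches A and B with the same replicate number differed by 1.21 to 1.28 times counting noise, against 2.01 to 8.22 times for other numbers, and in SW1783 the ranges overlapped (1.34 to 1.47 and 1.42 to 2.32). Pairs of libraries within a group differed by 1.39 to 31.2 times in HT29 and by 1.31 to 2.15 times in SW1783. Whether same-numbered vehicles of both batches share cultures is not stated, so batch A vehicles are not used as an independent check of batch B. In bulk RNA, fewer cells of a kind and less RNA per cell cannot be told apart.

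The promoter sequences show where a textbook element of the pathway is present in letters. RefSeq promoters of GRCh38.p14, 250 bases before to 50 after a start site, were held for 9 members, all but NUPR1. The core of the C/EBP-ATF response element, through which ATF4 with a C/EBP partner binds DNA, was searched as TGATGNAA on both strands. It was present in ATF3 and CEBPG, 2 of 9 members, and, over 27305 genes with all their promoters, in 4.46% of genes (3.62% of 35116 single promoters). The palindromic CRE, TGACGTCA, was present in PPP1R15A, 1 of 9 members, and in 2.25% of genes (1.85% of promoters). The ER stress element, CCAAT and CCACG 9 bases apart (ERSE), was in none of the 9 and in 0.0916% of genes (0.0769% of promoters). A match describes letters, not a bound site. The 3 windows follow, each 30 bases 5′ to 3′ on the plus strand, with the element in capitals.
ATF3, chr1:212565205-212565234, upstream of every annotated transcript: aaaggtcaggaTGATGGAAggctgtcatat
CEBPG, chr19:33374060-33374089, within an intron of 2 transcripts: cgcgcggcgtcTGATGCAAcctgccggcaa
PPP1R15A, chr19:48872352-48872381, within an untranslated exon of 1 transcript: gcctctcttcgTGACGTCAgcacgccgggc

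Levels below are counts divided by size factors set over all 36 libraries, and they serve to compare 1 gene between libraries, not different genes. Fold changes come from DESeq2 fits within a line and batch, on the log2 scale with the standard error (SE). A gene was called when its Benjamini-Hochberg adjusted p was under 0.05 and its change over 1.5-fold, which is 0.585 on the log2 scale. Adjusted p-values written as too small to store came out as zero in the software. The labels do not say that replicates were separate cultures, so p-values measure the spread between these libraries, which may be technical.

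**Figure D1:**
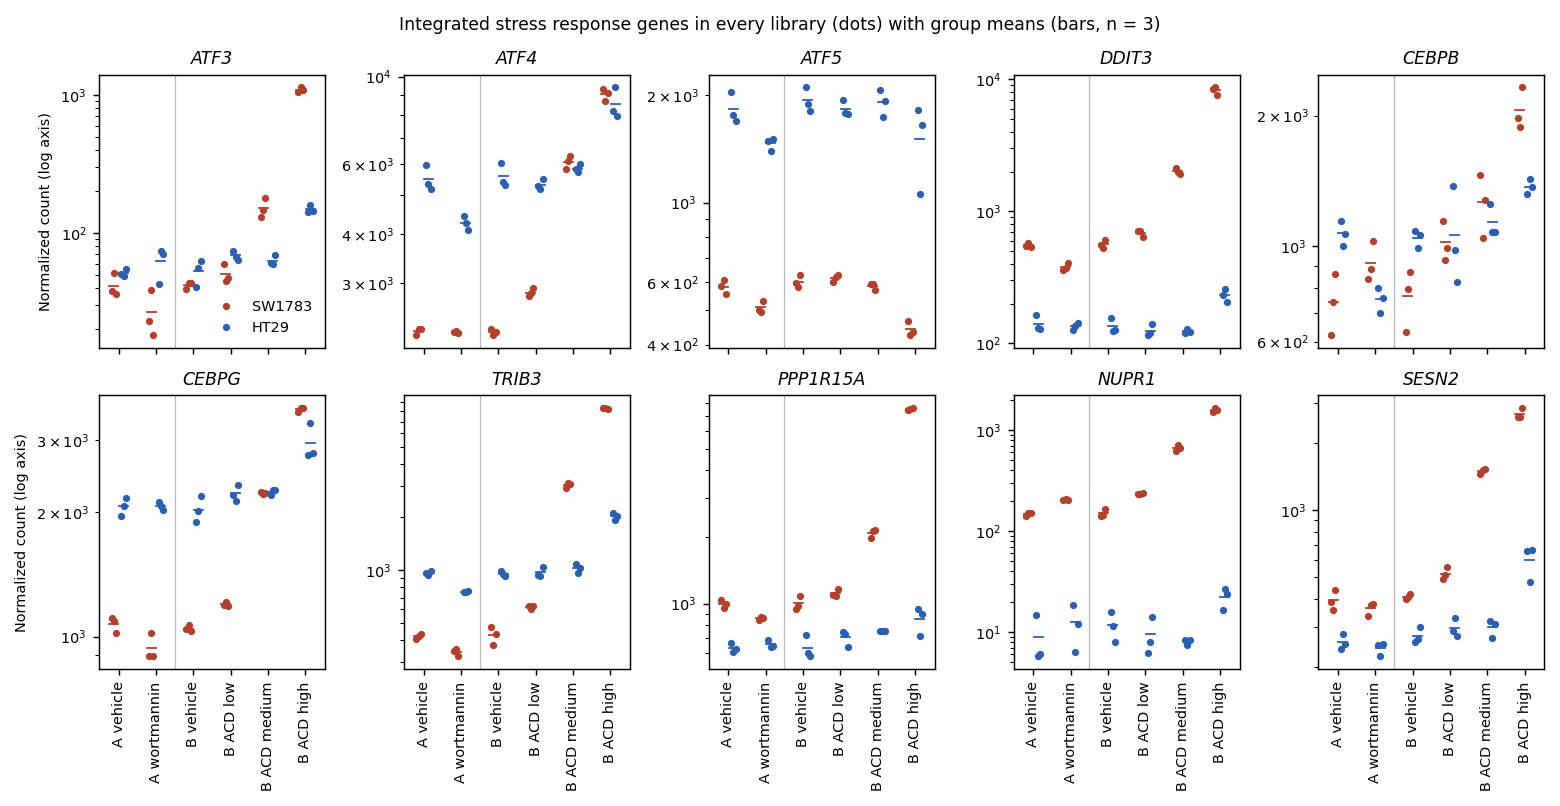
Normalized counts (log axis) of the 10 genes in every library (dots) with the group mean (bar, n = 3), for SW1783 and HT29 in vehicle and wortmannin of batch A and in vehicle and 3 ACD doses of batch B. In SW1783, 9 genes climb from vehicle to the high dose while ATF5 is lower at the high dose, and in HT29 the changes are smaller and lie at the high dose.

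Across SW1783, 9 of the 10 members were called up at the high dose, where 8.39% of the 20092 genes tested were called up. Their median log2 fold change over all 10 was 2.84, against -0.01 over all genes tested. At the medium dose 9 were again called up against a background of 2.34%, with a member median of 1.64. At the low dose NUPR1 alone was called, where 0.0965% of genes were called up, and 6 members had an adjusted p under 0.05. In addition, 9 of 10 members had all 3 low dose libraries above all 3 vehicle libraries, which held for 12.3% of the 11417 genes whose mean level reached 100 normalized counts. From medium to high dose, 9 rose further, against a background of 4.42%. The libraries of vehicle, low, medium and high dose were fully separate and rising for 8 members, all but ATF5 and CEBPB, and for 3.75% of the 11417 genes.

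ATF4 (ENSG00000128272; chromosome 22, 39519695 to 39522683, plus strand), the factor at the head of the pathway, was well counted in both lines. SW1783 vehicle libraries had 2293, 2214 and 2258 normalized counts, and the low dose 2778, 2825 and 2907. The medium dose gave 5849, 6110 and 6274 and the high dose 9309, 8679 and 9080. Each dose lay above the one before it with no overlap. The log2 fold change was 0.33 ± 0.04 at the low dose (DESeq2 adjusted p = 2.66e-14, under 1.5-fold), 1.44 ± 0.04 at the medium dose and 2.03 ± 0.04 at the high dose, a 4.07-fold rise, with adjusted p too small to store at both upper doses. The step from medium to high was 0.59 ± 0.03, at the border of the fold threshold, and with edgeR it was 0.58 and no longer called.

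In HT29 ATF4 began higher and moved less. The vehicle libraries had 6033, 5422 and 5321 normalized counts, the medium dose 5821, 5725 and 5994, and the high dose 8156, 9409 and 7944. High dose libraries were above all others of the line, whereas medium and vehicle overlapped. The change at the high dose was 0.59 ± 0.08 (DESeq2 adjusted p = 1.27e-10), and this call was lost with TMM size factors (0.58) and without high dose replicate 2 (0.50), vehicle replicate 2 (0.57) or vehicle replicate 3 (0.55). High dose levels of ATF4 overlapped between the lines, 8679 to 9309 in SW1783 and 7944 to 9409 in HT29, although vehicle levels did not. Counts of ATF4 can be shared with near-identical copies, and its 4 pseudogenes in the table held 0.0499% of its counts.

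CEBPG (ENSG00000153879; chromosome 19, 33373685 to 33382686, plus strand), a short C/EBP protein that pairs with ATF4, followed the same order. Its SW1783 levels were 1041, 1068 and 1029 in vehicle, 2242, 2212 and 2234 at the medium dose and 3504, 3585 and 3573 at the high dose. The replicates of each group lay close together and the groups did not overlap. Log2 fold changes were 0.20 ± 0.05, 1.10 ± 0.05 and 1.79 ± 0.04 from low to high dose, and the low dose change did not reach 1.5-fold (DESeq2 adjusted p = 0.00408). HT29 had 1896, 2012 and 2189 in vehicle and 2758, 3303 and 2779 at the high dose. These groups were separate too, and the change of 0.52 ± 0.09 had an adjusted p of 7.19e-07 in DESeq2 but stayed under 1.5-fold. Without high dose replicate 2, the highest of its group, it was 0.42 ± 0.07.

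CEBPB (ENSG00000172216; chromosome 20, 50190830 to 50192668, plus strand), a C/EBP factor that also takes part in inflammation and differentiation, was more variable between SW1783 replicates than ATF4 or CEBPG. Vehicle libraries had 632.1, 793.5 and 867.3 normalized counts, the low dose 1139, 929.0 and 987.2, the medium dose 1458, 1043 and 1275 and the high dose 1976, 1880 and 2329. Vehicle and high dose stood apart, and low and medium doses overlapped. The high dose change was 1.46 ± 0.16 (DESeq2 adjusted p = 2.66e-18) and the medium dose change 0.73 ± 0.16 (adjusted p = 7.8e-05). In HT29 the high dose libraries, 1317, 1424 and 1370, lay above the vehicle libraries, 1081, 988.8 and 1061, but the change of 0.38 ± 0.16 did not pass the test (DESeq2 adjusted p = 0.133, 95% interval 0.07 to 0.69), nor did it without high dose replicate 2 (0.34 ± 0.20).

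DDIT3 (ENSG00000175197; chromosome 12, 57516588 to 57521737, minus strand) encodes CHOP, a C/EBP-like factor linked to cell death under prolonged stress. In SW1783 it went from 553.5, 526.1 and 611.7 in vehicle to 713.3, 716.0 and 641.4 at the low dose. The medium dose gave 2150, 1989 and 1922 and the high dose 8431, 8760 and 7677. Every group was separate from the next, and the upper step was the steeper one. The log2 fold change was 0.30 ± 0.07 at the low dose (DESeq2 adjusted p = 0.00253, under 1.5-fold), 1.85 ± 0.07 at the medium dose (adjusted p = 9.87e-168) and 3.91 ± 0.06 at the high dose, a 15-fold rise with an adjusted p too small to store.

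DDIT3 in HT29 stayed low: 155.5, 124.2 and 126.2 in vehicle, 120.3, 128.3 and 122.7 at the medium dose and 230.8, 259.2 and 205.3 at the high dose. Only the high dose stood clear of vehicle, by 0.76 ± 0.15 (DESeq2 adjusted p = 2.01e-05), and by 0.67 ± 0.16 without high dose replicate 2 (adjusted p = 0.000794). The gene overlaps MARS1 and MBD6 on the opposite strand, and the strand setting of the counting was not stated, so shared reads cannot be told apart. MARS1, a methionyl-tRNA synthetase gene, was much more counted than DDIT3 in HT29 (a mean of 3902) and rose at the high dose by 0.56 (DESeq2 adjusted p = 1.62e-25) in HT29 and by 0.92 (adjusted p = 2.47e-136) in SW1783.

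ATF3 (ENSG00000162772; chromosome 1, 212565334 to 212620777, plus strand), a stress-induced bZIP factor that acts mainly as a repressor, had the largest fold change of the members in both lines at the high dose. SW1783 vehicle held 39.3, 43.1 and 43.4 normalized counts, the low dose 59.9, 44.6 and 47, the medium dose 131.1, 145.7 and 180.1 and the high dose 1051, 1144 and 1081. The low dose lay just above vehicle and its change of 0.27 ± 0.20 did not pass the test (DESeq2 adjusted p = 0.598). The medium dose change was 1.87 ± 0.18 (adjusted p = 3.02e-24) and the step from medium to high 2.86 ± 0.12 (DESeq2 adjusted p = 4e-122). HT29 had 40.4, 55.3 and 63.1 in vehicle, 60.7, 59.7 and 68.8 at the medium dose and 141.6, 159.6 and 145.1 at the high dose. The high dose was separate from vehicle, and the change was 1.45 ± 0.18 (DESeq2 adjusted p = 6.82e-13), or 1.40 ± 0.22 without high dose replicate 2.

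ATF5 (ENSG00000169136; chromosome 19, 49928702 to 49933935, plus strand), a bZIP factor whose mRNA, like that of ATF4, is translated more under stress, was the exception. In SW1783 vehicle it had 594.0, 580.7 and 626.5 normalized counts, and at the high dose 466.1, 424.4 and 432.4. All 3 high dose libraries were below all vehicle libraries, and the log2 change was -0.42 ± 0.08 (DESeq2 adjusted p = 6.88e-07), which is under 1.5-fold and was not called. The medium dose, with 589.8, 590.8 and 569.1, gave -0.04 ± 0.08 (adjusted p = 0.79, 95% interval -0.19 to 0.12). HT29 had 2110, 1892 and 1801 in vehicle and 1821, 1054 and 1650 at the high dose, and these overlapped. The HT29 change was -0.37 ± 0.16 (DESeq2 adjusted p = 0.157) and -0.18 ± 0.09 without replicate 2. ATF5 overlaps IL4I1 and NUP62 on the opposite strand. IL4I1 was rarely counted, with a mean of 41.3 in SW1783 and 14.1 in HT29, and rose at the high dose by 1.61 (DESeq2 adjusted p = 2.02e-08) and 2.64 (adjusted p = 3.06e-05), opposite in sign to ATF5. NUP62 had a log2 fold change of -0.13 at the high dose in both lines.

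TRIB3 (ENSG00000101255; chromosome 20, 362835 to 397559, plus strand) encodes a pseudokinase that binds AKT and feeds back on ATF4 and CHOP. Its SW1783 vehicle libraries had 479.4, 377.6 and 436.0 normalized counts and the low dose 629.3, 604.4 and 629.9. At the medium dose it had 2930, 3118 and 3094 and at the high dose 8380, 8356 and 8273. It had the largest change of the members at the medium dose, 2.84 ± 0.06, or 7.14-fold, and rose 19.8-fold at the high dose (4.31 ± 0.06). At the low dose the change of 0.54 ± 0.07 (DESeq2 adjusted p = 8.41e-14) fell just under the fold threshold and passed it without vehicle replicate 1 (0.62). HT29 vehicle libraries, at 987.1, 947.7 and 927.1, were separate from the high dose libraries, at 2125, 1943 and 2043. That change was 1.08 ± 0.07 (DESeq2 adjusted p = 1.19e-45) and 1.10 ± 0.08 without replicate 2.

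PPP1R15A (ENSG00000087074; chromosome 19, 48872212 to 48876059, plus strand), the phosphatase subunit that reverses eIF2 phosphorylation, moved mainly between the 2 upper doses in SW1783. Vehicle had 946.5, 980.3 and 1081, the medium dose 1970, 2119 and 2152 and the high dose 7432, 7557 and 7637 normalized counts. The medium dose change was 1.06 ± 0.05 (DESeq2 adjusted p = 4.91e-95) and the high dose change 2.94 ± 0.05, a 7.66-fold rise with an adjusted p too small to store. In HT29 the vehicle libraries, 720.1, 599.4 and 579.0, and the high dose libraries, 943.8, 717.6 and 899.8, overlapped through high dose replicate 2. The HT29 change was 0.42 ± 0.12 (DESeq2 adjusted p = 0.00892) and 0.52 ± 0.10 without that replicate, in both cases under 1.5-fold.

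NUPR1 (ENSG00000176046; chromosome 16, 28532708 to 28539008, minus strand) encodes a small stress-induced nuclear protein, and its sensitivity to dose in SW1783 was already visible at the low dose. Vehicle had 140.4, 145.7 and 165.5 normalized counts, the low dose 235.3, 235.3 and 238.2, the medium dose 626.4, 717.1 and 661.7 and the high dose 1528, 1661 and 1581. Changes were 0.66 ± 0.11 (DESeq2 adjusted p = 7.01e-07), 2.16 ± 0.10 (adjusted p = 1.59e-100) and 3.43 ± 0.10 (adjusted p = 2.69e-272). In a fit on the low dose and vehicle libraries alone (0.65), and without low dose replicate 2 (0.66) or replicate 3 (0.65), DESeq2's filter on low means gave NUPR1 no adjusted p at the low dose, so that it was not called there. HT29 held 7.89 to 15.9 normalized counts in vehicle and 16.4, 26.9 and 23.8 at the high dose. So few counts left the HT29 change of 0.92 ± 0.44 undecided (DESeq2 adjusted p = 0.208, 95% interval 0.05 to 1.79), as it was without high dose replicate 2 (0.78 ± 0.55).

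SESN2 (ENSG00000130766; chromosome 1, 28259518 to 28282491, plus strand), a leucine-binding sestrin that restrains mTORC1, had 400.8, 407.3 and 421.1 normalized counts in SW1783 vehicle. The low dose gave 490.6, 515.2 and 554.3, the medium dose 1449, 1515 and 1532 and the high dose 2603, 2594 and 2863. No group overlapped another. Log2 fold changes were 0.35 ± 0.08 (DESeq2 adjusted p = 0.000582), 1.88 ± 0.07 (adjusted p = 8.91e-158) and 2.74 ± 0.07 (adjusted p too small to store). HT29 had 257.2, 265.3 and 301.8 in vehicle and 655.5, 477.3 and 663.0 at the high dose, separate groups that differed by 1.12 ± 0.14 (DESeq2 adjusted p = 1.16e-12) and by 1.24 ± 0.12 without replicate 2.

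The medium dose stood at different points of the response in SW1783. Expressed as a share of the log2 change at the high dose, the medium dose reached 71% for ATF4, 68.6% for SESN2, 65.9% for TRIB3, 63% for NUPR1 and 61.3% for CEBPG. It reached 49.8% for CEBPB, 47.3% for DDIT3, 39.6% for ATF3 and 36.1% for PPP1R15A. From medium to high dose the log2 level of the 9 genes rose by 0.59 ± 0.03 for ATF4 to 2.86 ± 0.12 for ATF3, with CEBPB at 0.73 ± 0.16, TRIB3 at 1.47 ± 0.04 and PPP1R15A at 1.88 ± 0.04. Differences between genes were not tested.

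**Figure D2:**
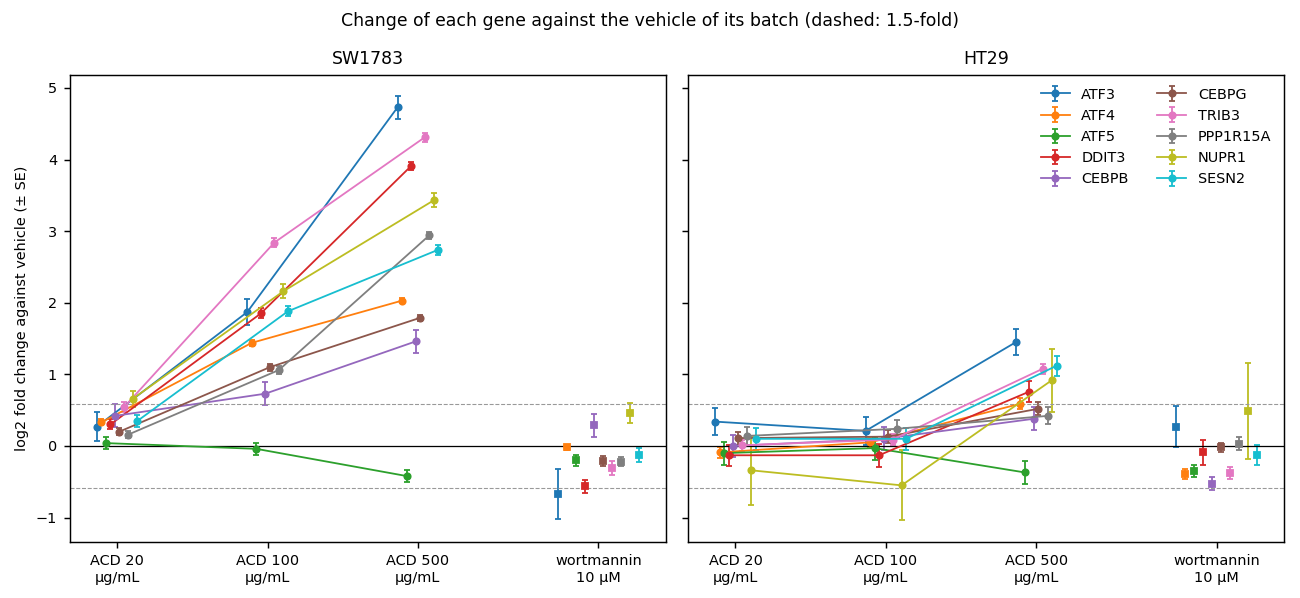
Log2 fold change (± SE, n = 3 against 3) of the 10 genes at 20, 100 and 500 µg/mL ACD against vehicle of batch B and with 10 µM wortmannin against vehicle of batch A, in SW1783 (left) and HT29 (right). Dashed lines mark 1.5-fold. ATF3 reaches 4.73 and TRIB3 4.31 in SW1783, where ATF5 ends at -0.42, and in HT29 the largest value is 1.45 for ATF3.

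In HT29 5 members were called up at the high dose (ATF3, ATF4, DDIT3, TRIB3 and SESN2) where 1.38% of 14742 genes were called up. The member median was 0.67 against 0.01 over all genes tested. With no fold threshold, 7 members had a DESeq2 adjusted p under 0.05, all higher, as CEBPG and PPP1R15A rose by less than 1.5-fold. Without high dose replicate 2, 4 members were called, ATF4 dropping under the fold threshold. No member was called at the medium dose, where 0.792% of genes were called in either direction, or at the low dose, where 0.287% were. At the 2 lower doses 1 unadjusted p was under 0.05, that of PPP1R15A at the medium dose (0.0478), and edgeR also called 0 members at each. Against the medium dose, the high dose raised ATF3 by 1.23 ± 0.18, DDIT3 by 0.89 ± 0.15, TRIB3 by 0.99 ± 0.07 and SESN2 by 1.01 ± 0.14. These 4 calls stood against a background of 0.387%.

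The difference between the lines was tested as an interaction of line and dose. At the high dose 9 members responded more in SW1783 than in HT29, where 6.84% of 18410 genes were called in that direction. The largest differences were those of ATF3, 3.24 ± 0.23 (DESeq2 adjusted p = 2.85e-44), TRIB3, 3.18 ± 0.09 (adjusted p = 1.37e-262), and DDIT3, 3.11 ± 0.14 (adjusted p = 2.71e-100). ATF4 differed by 1.39 ± 0.08 and its partner CEBPG by 1.23 ± 0.09. For ATF5 the difference was -0.09 ± 0.19 (DESeq2 adjusted p = 0.793) with a 95% interval from -0.46 to 0.27, so a difference of up to that size was not resolved. At the medium dose 8 members differed, against a background of 1.83%, led by TRIB3 (2.72 ± 0.09) and NUPR1 (2.68 ± 0.38), and CEBPB did not pass (0.60 ± 0.22, DESeq2 adjusted p = 0.0613). NUPR1 had few counts in HT29, 7.37 to 8.37 normalized at the medium dose. Its HT29 change there, -0.55 ± 0.49, was not resolved (DESeq2 adjusted p = 0.801), and its SW1783 change was 2.16 ± 0.10.

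**Figure D3:**
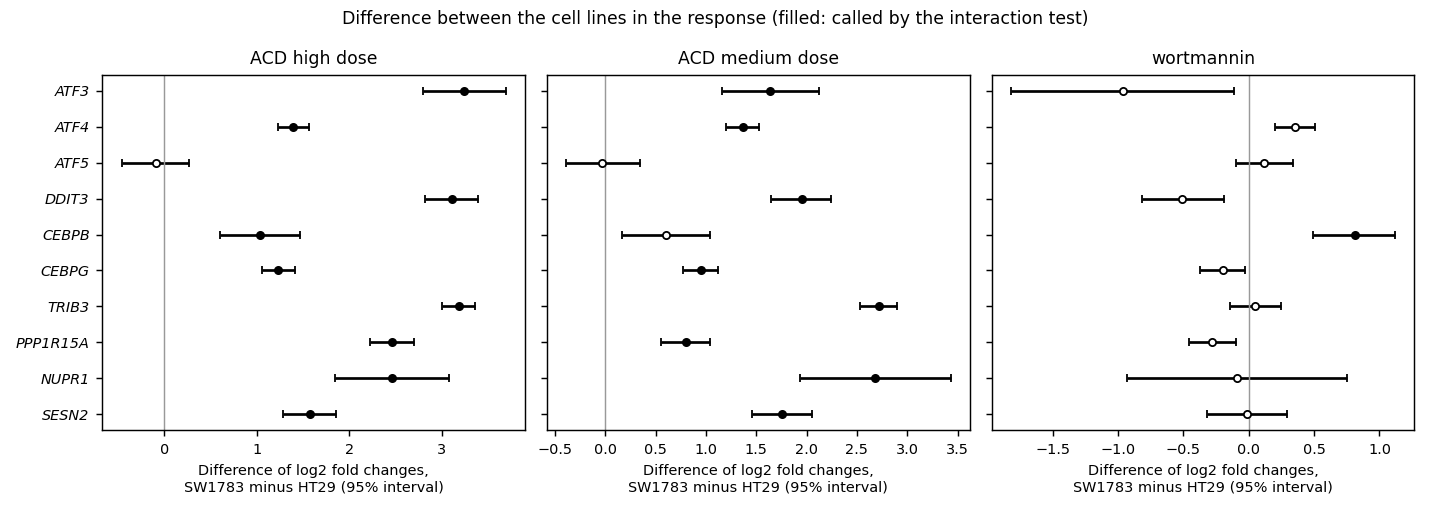
Difference of log2 fold changes, SW1783 minus HT29, with 95% interval for each of the 10 genes at the high and medium dose of ACD and with wortmannin (filled points are called by the interaction test). At the high dose 9 intervals lie above 0, from 1.04 for CEBPB to 3.24 for ATF3, and that of ATF5 spans 0.

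Untreated levels are given for reference. Between the vehicle groups of batch B, 3 of 10 members were called higher in SW1783 and 4 of 10 lower, near the shares of all genes (27.2% and 22.9%), so the counts say nothing particular about the members. DDIT3 was 4.2-fold higher in SW1783 (2.07 ± 0.14 on the log2 scale), NUPR1 13-fold (3.70 ± 0.31) and PPP1R15A 1.59-fold. ATF5 was 3.22-fold higher in HT29, ATF4 2.48-fold, TRIB3 2.22-fold and CEBPG 1.95-fold. SESN2, at 0.57 ± 0.11, lay just under the fold threshold. It passed with the vehicles of batch A (0.61), which are not an independent check. ATF3 vehicle levels overlapped between the lines, with a difference of -0.35 ± 0.29 (DESeq2 adjusted p = 0.307). TRIB3 and DDIT3 thus ended far apart at the high dose from opposite starting orders: TRIB3 at 8336 ± 56.1 (SD, n = 3) in SW1783 and 2037 ± 91.2 in HT29, DDIT3 at 8289 ± 555.5 and 231.8 ± 26.9.

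Wortmannin moved the members little. In SW1783 none was called, where 2.71% of 14530 genes were called in either direction. There 6 members had a DESeq2 adjusted p under 0.05, of which 5 were lower and 1 higher, and the same number had an unadjusted p under 0.05. DDIT3 had 547.2, 577.2 and 540.9 normalized counts in vehicle of batch A and 360.2, 371.1 and 404.2 with wortmannin, separate groups with a change of -0.56 ± 0.09 (adjusted p = 6.07e-09). This was just under 1.5-fold and was called without wortmannin replicate 3 (-0.62). NUPR1 went the other way, from 141.5, 150.4 and 149.8 to 202.4, 206.7 and 203.8, by 0.46 ± 0.14 (DESeq2 adjusted p = 0.00481). ATF3 had overlapping groups and -0.67 ± 0.35 (DESeq2 adjusted p = 0.138), and was called in edgeR (-0.69, adjusted p = 0.0349) and in a fit on all 18 libraries of the line (-0.70). The fold changes of ATF5, CEBPG, TRIB3 and PPP1R15A were -0.20 to -0.31 on the log2 scale, and that of ATF4 was -0.02 ± 0.04 (95% interval -0.10 to 0.06).

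In HT29 wortmannin also gave no call among the 9 members with an adjusted p, against a background of 2.74%, and NUPR1 had too few counts for one. Here 4 members had a DESeq2 adjusted p under 0.05, all lower, and as many an unadjusted p under 0.05. ATF4 went from 5975, 5330 and 5188 normalized counts to 4440, 4265 and 4093, and CEBPB from 1138, 1001 and 1065 to 798.5, 698.2 and 758.2. Neither pair of groups overlapped. The changes were -0.39 ± 0.07 for ATF4 (DESeq2 adjusted p = 2.03e-06), -0.53 ± 0.09 for CEBPB (adjusted p = 1.74e-07), -0.38 ± 0.08 for TRIB3 and -0.35 ± 0.09 for ATF5. Of the 9 members with an adjusted p for the difference between lines, only CEBPB was called, at 0.81 ± 0.16 (DESeq2 adjusted p = 1.24e-05). In that direction 0.884% of genes were called. ATF3 had a larger difference, -0.96 ± 0.44 (95% interval -1.82 to -0.11), but DESeq2 gave it no adjusted p, so it could not be called. The edgeR count was 0 in HT29 and 1 in SW1783.

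Genes that ATF4 and CHOP are known to control were taken from lists chosen with earlier results of these data known, so their counts describe the pathway and support nothing further. In SW1783 at the high dose the background was 8.39% called up and 9.26% called down, and in HT29 1.38% and 1.78%. Of the amino acid and one-carbon synthesis genes, 13 of 14 were called up in SW1783 (median 1.53) and 7 of 13 in HT29 (median 0.57). ASNS, which makes asparagine, rose by 2.87 ± 0.04 and 2.08 ± 0.14, and CTH, which makes cysteine, by 2.49 ± 0.11 and 0.86 ± 0.17. Of the amino acid transporter genes 8 of 10 and 6 of 10 were called up, with SLC7A11, the cystine carrier, at 1.86 ± 0.03 and 1.21 ± 0.11. The cytosolic aminoacyl-tRNA synthetases gave 12 of 12 and 5 of 12, among them GARS1 at 1.80 ± 0.04 and 0.79 ± 0.07. None of these 3 lists held a gene called down in either line at that dose. Tested as an interaction, 6 of 14 synthesis genes, 3 of 10 transporter genes and 3 of 12 synthetases were called more positive in SW1783. Of all genes 6.84% were. More positive in HT29 were 1 transporter gene and 0 genes of the synthesis and synthetase lists, beside 7.76% of all genes.

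Other downstream genes of ATF4 and CHOP were called up in 11 of 14 cases in SW1783 and 8 of 12 in HT29. Tested as an interaction, 5 of 14 were called more positive in SW1783 and 1 of 14 in HT29, with a median difference of 0.15. The shares of all genes were 6.84% and 7.76%. CHAC1, which breaks down glutathione, rose by nearly the same amount in both lines, 2.94 ± 0.13 in SW1783 and 2.99 ± 0.17 in HT29. Their difference was -0.10 ± 0.20 (DESeq2 adjusted p = 0.784) with a 95% interval from -0.49 to 0.28. GDF15, a secreted stress cytokine, rose by 6.81 ± 0.10 and 0.69 ± 0.07, a difference of 6.08 ± 0.12. TNFRSF10B, a death receptor known as a CHOP target, rose by 2.24 ± 0.04 in SW1783 and had 0.09 ± 0.11 in HT29 (DESeq2 adjusted p = 0.752), a difference of 2.10 ± 0.11 (adjusted p = 1.29e-85). CHAC1 in HT29 thus changed by more than any of the 10 members there, and JDP2, a bZIP relative of ATF3, rose by 1.29 ± 0.13 and 1.10 ± 0.16.

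Of the 16 genes for the eIF2 kinases, eIF2 and its phosphatases, 1 was called in SW1783 at the high dose, EIF2S2, the beta subunit of eIF2 (0.74 ± 0.04), while 12 had an unadjusted p under 0.05 in DESeq2 and the list median was 0.09. In HT29 0 of 16 were called, with 2 at an unadjusted p under 0.05 in DESeq2 and 0 calls in edgeR. The called counts lie near the shares of all genes called. The share of all genes with an unadjusted p under 0.05 is not given here, so those counts have no background. Chaperones and degradation genes of the endoplasmic reticulum were listed here under the other branches of the unfolded protein response. This list split by line: 13 of 18 were called up in SW1783 and 0 of 18 in HT29. In HT29 6 of the 18 had an unadjusted p under 0.05 in DESeq2, and edgeR called 0. HERPUD1 had 2.68 ± 0.04 and 0.44 ± 0.07, and HSPA5, the chaperone BiP, 1.84 ± 0.02 and 0.24 ± 0.08. In the interaction test 14 of 18 were called more positive in SW1783, where 6.84% of all genes were, and 0 more positive in HT29, where 7.76% of all genes were. At the medium dose in SW1783, where 2.34% of all genes were called up, 3 of these 18 genes were called up, and 17 had an unadjusted p under 0.05 in DESeq2, 16 of them higher, with a list median of 0.40.

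Neighbouring stress programmes gave a mixed picture at the high dose. Of all genes, 8.39% were called up and 9.26% down in SW1783, and 1.38% and 1.78% in HT29. In SW1783 the share of p53 targets called up, and that of other bZIP factors called down, lie near these. NRF2 target genes were called up in 8 of 10 and 6 of 10 cases, with HMOX1, heme oxygenase, at 3.39 ± 0.05 and 1.09 ± 0.13. Some genes stand in more than 1 list, so the counts are not separate. SLC7A11 is in this list and among the transporters, and JDP2 is among the downstream genes and the paralogs. p53 target genes, a program that also includes sestrins, had 1 called up and 2 down of 12 in SW1783 and 1 up and 1 down in HT29. CDKN1A rose by 1.44 ± 0.07 in SW1783 while ZMAT3 fell by 0.71 on the log2 scale. Of the mitochondrial stress genes 3 of 10 were called up in SW1783, LONP1 at 1.15 ± 0.04, HSPA9 at 1.12 ± 0.02 and OMA1 at 0.74 ± 0.09, and 0 of 10 in HT29, where 5 had an unadjusted p under 0.05 in DESeq2 and edgeR called 0. Paralogs of the members did not follow them as a group: 2 were called up and 2 down of 9 in SW1783, and 1 up and 2 down of 9 in HT29. These counts rest on few genes. In SW1783 TRIB1 had 0.90 ± 0.08 and SESN3 -0.89 ± 0.15. SESN3 also fell in HT29 (-1.01 ± 0.29, DESeq2 adjusted p = 0.00826), opposite in sign to SESN2. Among other bZIP factors 10 were called up and 3 down of 30 in SW1783, led by MAFF (2.05 ± 0.08), MAFG (1.42 ± 0.05) and JUND (1.37 ± 0.09), and 1 up and 1 down of 28 in HT29.

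**Figure D4:**
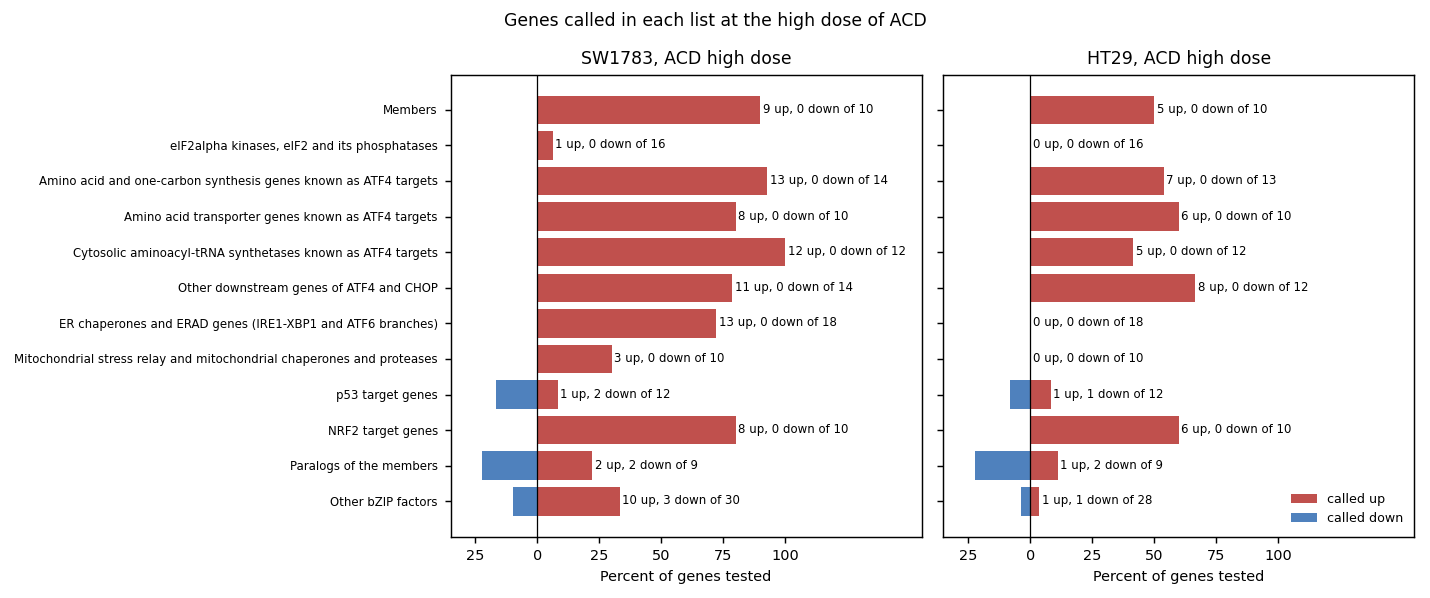
Percent of tested genes called up (right of 0) and called down (left of 0) at the high dose of ACD in the 10 members and in 11 lists, for SW1783 (left) and HT29 (right), with counts beside each bar. Amino acid synthesis, transporter and other ATF4 target lists have calls in both lines, whereas the endoplasmic reticulum list has 13 of 18 in SW1783 and 0 of 18 in HT29.

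The shape of the response over the 8 comparisons against vehicle was compared between genes as a description. These comparisons share vehicle libraries. The correlation of each member with the median of the other 9 was between 0.89 and 1.00 for 9 members and -0.33 for ATF5. Among 9663 well counted genes (mean level of at least 100 in each line), the 5 non-members most like the member median were LONP1, a mitochondrial protease (r = 0.996), KLF4, a zinc finger factor (0.993), MOCOS, a molybdenum cofactor enzyme (0.991), GOT1, an aspartate aminotransferase (0.991), and HSPA5 (0.99). KLF4 had log2 fold changes of 2.76, 1.39 and 0.23 from high to low dose in SW1783 and of 0.42 at the high dose in HT29, beside 2.84, 1.64, 0.32 and 0.67 for the member median.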

How the data were processed

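The values deposited by the authors are RSEM expected counts per gene, not normalized, from paired-end sequencing of directional mRNA libraries. Per the labels (the submitters' processing notes) the tools were FastQC 0.11.9, Trim Galore 0.6.5, STAR 2.7.3a and RSEM 1.3.3 on GRCh38; the methods give other versions of some tools and also name hg19. The strand setting and the treatment of multiply mapped reads were not stated. Symbols were matched for 56558 of 60675 Ensembl genes, and positions are from GENCODE v44 on GRCh38. Expected counts were rounded here (8.84% of values were not whole). Total counts ranged from 15941255 to 33866644.

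Each treatment was tested against vehicle of its own batch with DESeq2 1.42.0 (R 4.3.3; Wald test, two-sided), the test named in the study's methods, at default settings, on 12 libraries per line in batch B and 6 in batch A. Differences between lines were interactions on 24 or 12 libraries. Genes with no count in a fit were dropped, and adjusted p-values missing from DESeq2 were kept as missing. The scripts were tested on simulated data. Alternatives were edgeR 4.0.16 (quasi-likelihood), TMM size factors, a filter of 10 counts in 3 libraries, no fold threshold, mitochondrial genes left out, other sets of libraries in the fit, the replicate number as a block and 72 fits that each left out 1 library.

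The members and lists were chosen with earlier results of these data known. All 10 members were named. Up to 3 genes per list were named: those with the largest change at the high dose in SW1783 among genes called there whose mean level reached 100 normalized counts and whose libraries were separate. MARS1, IL4I1 and NUP62 were named for their overlap with members. KLF4 was singled out among the 5 most alike genes after its values were seen. Replicate numbers are shared by the groups, but treated and vehicle libraries of the same number did not deviate together, so no pairing was assumed. At the high dose their correlations were -0.01, -0.06 and -0.03 in SW1783 and -0.47, -0.47 and 0.36 in HT29. High and medium dose libraries of the same number had 0.06, 0.04 and 0.22 in SW1783 and 0.30, 0.26 and 0.01 in HT29. For other numbers the largest values were 0.09 and 0.16. Vehicles of batches A and B with the same number did deviate together (0.30, 0.19 and 0.19 in SW1783 and 0.75, 0.51 and 0.63 in HT29); no test compared them with each other. The spread of library pairs over counting noise was the median chi-square statistic over its expected median, for genes with 100 counts or more in the pair, and this check was added after seeing the data.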

Additional observations from a re-analysis of the deposited data

Results flagged for a closer look

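The responses of the members that differed between SW1783 and HT29 by the interaction test are collected here as SW1783 minus HT29 on the log2 scale, each with a DESeq2 adjusted p under 0.05 and a difference over 1.5-fold. At the high dose of ACD the differences were 3.24 for ATF3, 1.39 for ATF4, 3.11 for DDIT3, 1.04 for CEBPB, 1.23 for CEBPG, 3.18 for TRIB3, 2.46 for PPP1R15A, 2.46 for NUPR1 and 1.57 for SESN2. At the medium dose they were 1.64 for ATF3, 1.37 for ATF4, 1.95 for DDIT3, 0.95 for CEBPG, 2.72 for TRIB3, 0.80 for PPP1R15A, 2.68 for NUPR1 and 1.75 for SESN2. The wortmannin response differed for CEBPB by 0.81. The 2 doses share the vehicle libraries. Line, culture medium and plating density cannot be told apart.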

How the results depend on the processing

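Of 1867 alternative values of single members that had an adjusted p, 1844 stayed called or stayed not called, 9 lost the call and 14 gained it. Values that were not called could change sign within the 1844, as for DDIT3 with wortmannin in HT29 (-0.16 to 0.04). None changed direction while called. Alternative values without an adjusted p are not in this tally. The 9 lost calls in this tally were all of ATF4, at the step from medium to high dose in SW1783 (0.56 to 0.58) and at the high dose in HT29 (0.50 to 0.58). The number of members called moved by over 1.5 times in 4 comparisons. At the low dose in SW1783 it was 1, and 0 in a fit on the groups compared only, 6 with no fold threshold and 0 to 2 when 1 library was left out (2 without vehicle replicate 1, 0 without low dose replicate 2 or low dose replicate 3). The counts of 0 arose because DESeq2 gave NUPR1 no adjusted p in those fits, 3 of 45 such values over all fits. With wortmannin in SW1783 it was 0, and 1 with edgeR, 1 with all 18 libraries of the line, 6 with no fold threshold and 0 to 1 when 1 library was left out (1 without wortmannin replicate 3). With wortmannin in HT29 it was 0, and 4 with no fold threshold. For the line difference in the wortmannin response it was 1, and 4 with no fold threshold and 1 to 2 when 1 library was left out (2 without HT29 vehicle replicate 1 or SW1783 wortmannin replicate 2). The cause of the other moves was not tested. With the replicate block the counts equalled those without it in all 14 comparisons, for example 9 at the high dose in SW1783 and 5 in HT29. Depth limited NUPR1 in HT29, where libraries held 6 to 34 raw counts, and ATF3, with 22 to 82 raw counts in libraries of batch A.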
